A study of Homo sapiens with 12 samples.

Results

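The comparison described here was that of high with low glucose in HepG2 cells that received no valproic acid (VPA). HepG2, an established line from a human liver tumour, keeps much of the expression pattern of hepatocytes. The cells were cultured for 48 h in medium with 20 mM glucose (HG, 3 libraries) or 5.5 mM glucose (LG, 3 libraries), and their poly(A) RNA was sequenced. The series also holds 3 libraries of each medium with 1 mM VPA, an inhibitor of histone deacetylases, added for 12 h (HGV and LGV), and these are used only as a second look at the same glucose difference. All genes that averaged 10 or more reads in the 6 untreated libraries were compared, 15452 of the 16389 genes in the deposited table. Cholesterol, complement, clotting and endoplasmic reticulum (ER) chaperone genes were set aside, so that the other genes could be described. No library with another sugar at the same osmolarity was analysed here, so glucose and osmolarity cannot be told apart. Whether untreated cells were harvested at 48 h or after the 12 h given to VPA is not stated. Nothing says that the replicates were separate cultures, and the p-values below therefore measure the spread between these libraries, which may be technical.

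Hepatocytes take up glucose through GLUT2, encoded by SLC2A2, and turn it into glucose 6-phosphate. Derivatives of this sugar activate ChREBP (gene MLXIPL) and MondoA (gene MLXIP), which pair with the protein MLX and bind carbohydrate response elements in the promoters of glycolytic, lipogenic and arrestin-related genes. Glucose also feeds glycogen, the pentose phosphate pathway, the hexosamine pathway that makes the sugars of glycoproteins, and the synthesis of fatty acids.

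Between 29816124 and 45572694 reads per library were counted on the genes of the table. Of the 14 hepatocyte markers, all were in the table and tested, and their summed level ran from 58600 to 68556 CPM in LG (CPM, counts scaled to library totals that were adjusted with TMM factors) and from 66828 to 73752 in HG. Markers of endothelial cells and macrophages were scarce, whereas those of cholangiocytes were not. Of 7 endothelial markers 3 were in the table, summing to 2.45 to 2.92 CPM in LG and 2.43 to 4.18 in HG, and of 7 macrophage markers only CD14 and CSF1R, summing to 1.36 to 2.53 in LG and 3.99 to 4.87 in HG, with CD14 higher in HG. Of 7 stellate cell and fibroblast markers 3 were in the table, summing to 48.5 to 70.0 in LG and 54.2 to 68.5 in HG, and of 6 cholangiocyte markers 4, summing to 545 to 732 in LG and 653 to 702 in HG. HepG2 is an established line, so these markers do not show that other cell types were present. The part of these genes in the results was not tested, and in bulk RNA fewer cells of a kind and less RNA per cell cannot be told apart. One low glucose library lay nearer to the HG libraries than the others did. Each library was placed on a scale on which the LG mean was 0 and the HG mean 1, both without the library itself, over the called genes whose 2 means differed by more than 0.5 on the log2 scale. The median place was 0.417 for LG3, against -0.0346 for LG1 and -0.244 for LG2, and 0.916 to 0.971 for the HG libraries. Since the genes were chosen with these libraries, this scale is a description only. Counts without LG3 are given beside those of the gene groups that the text leads with.

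Expression differed at an FDR of 0.05 or less for 3813 of the 15452 genes (24.7%), with 1854 higher in HG (12.0%) and 1959 lower (12.7%). The HG libraries lay above all LG libraries for 3195 genes (20.7%) and below them for 3154 (20.4%). Leaving out 1 library moved the counts of called genes to 2719 higher and 2619 lower without LG3, 961 and 972 without LG1, 1269 and 1283 without LG2, 1226 and 1453 without HG1, 1269 and 1406 without HG2, and 1121 and 955 without HG3. The share of higher genes depended on scaling, being 48.6% of all calls with TMM factors, 64.3% with upper quartile factors and 62.6% with library size alone. These other scalings moved the median log2 fold change of all genes from 0.01 to 0.10 and 0.11. Of 41 gene lists, which together hold 909 tested genes, 16 had more than 1 in 3 of their members called in one direction. Counts in the remaining lists, and among genes that share a promoter element, are to be read beside the 12.0% higher and 12.7% lower of all genes. Counts near these shares are not results about the list. The shares vary with gene type and level, being 10.3% higher and 16.2% lower among protein-coding genes of 2 log2 CPM and over. The list of ChREBP and MondoA sensors and targets had more genes higher than lower in HG, though none of the sensors was called higher. Genes of gluconeogenesis, fatty acid synthesis, DNA replication, mitosis and plasma carrier proteins were also more often higher than lower. Genes of ER membrane processing, vesicle coats, the lysosome, amino acid transport, the antioxidant response and the immediate early response were more often lower. Levels are given in CPM in the order of libraries 1, 2 and 3, and a named gene is said to have risen or fallen where its FDR was 0.05 or less. The 20 largest rises and 20 largest falls were picked among genes whose groups did not overlap, so that separation is not a result. Differences are log2 fold changes of HG over LG, in log2 units, with their standard error (SE). Several named genes share exon bases with a gene on the other strand, among them AGT, ARG2, BMP6, C19orf80, CTSA, DDIT3, ESRRA, FADS1, FADS2, GINS1, GINS2, IGF2, MCFD2, MLX, NANS, NFE2L2, PFKFB2, PKLR, PSMB9, RAB17, SEC61A1, SLC6A6, SQSTM1, TGFB1 and WARS, and others with one on their own strand, among them FADS2, IGF2R, MCOLN1, MT-CO3, NFE2L2, PSMB9 and SERPINA3. The kit kept the strand, but whether the counting used it is not given in the sources used here.

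**Figure D1:**
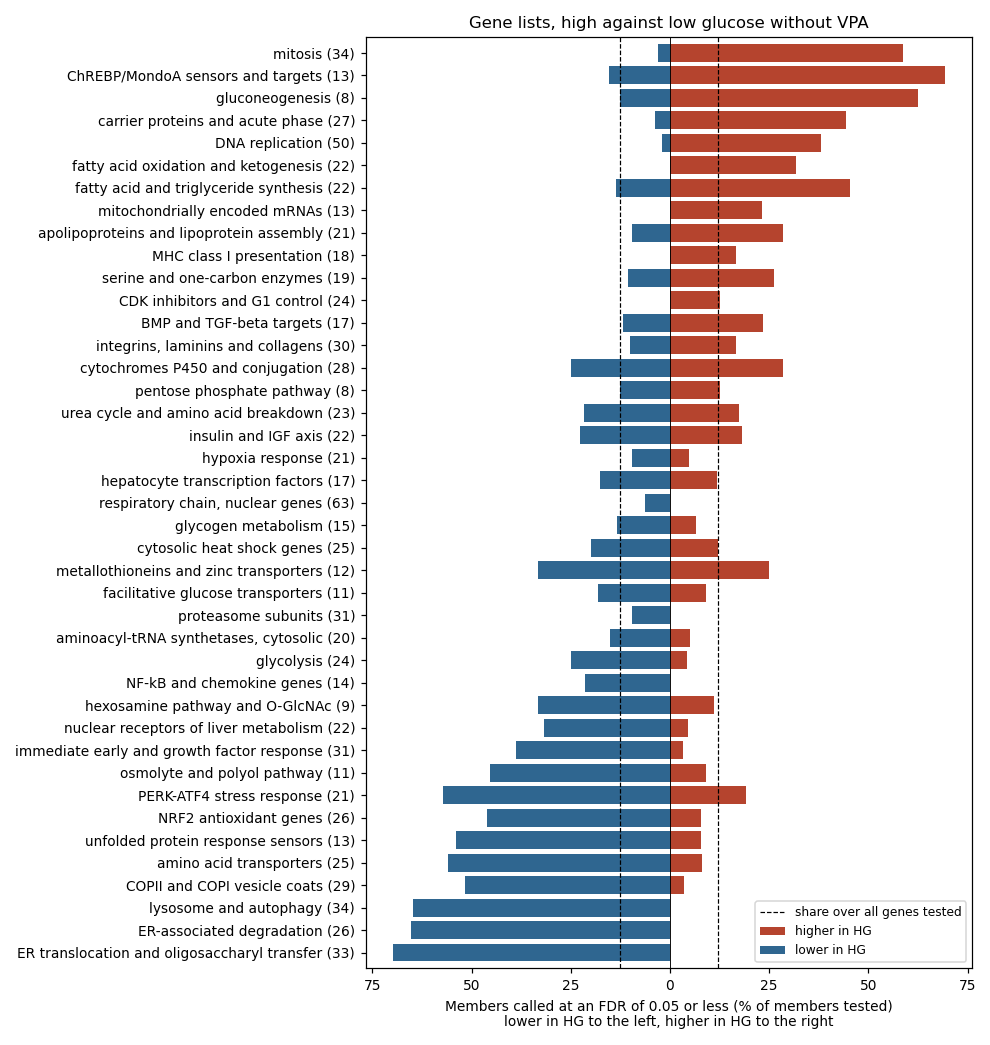
Share of the tested members of each of 41 gene lists that were called higher (right, red) or lower (left, blue) in HG than in LG, in percent, with the number of members tested in parentheses. Dashed lines mark the shares over all 15452 genes, 12.0% higher and 12.7% lower, and lists are ordered by the share higher minus the share lower, from mitosis, with 20 of 34 members higher and 1 lower, to ER translocation and oligosaccharyl transfer, with 23 of 33 lower and none higher.

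Among the sensors and targets of ChREBP and MondoA, 9 of 13 tested genes were higher in HG and 2 lower, with a median log2 fold change of 0.95 against 0.01 over all genes. Without LG3 these counts were also 9 and 2, and none was lower without HG3 or LG1. With VPA the count was 9 higher and 1 lower. TXNIP encodes an arrestin-like protein that inhibits glucose uptake and binds thioredoxin. The gene lies on chromosome 1 from 145438490 to 145442635 of GRCh37. Levels of TXNIP were 100.02, 380.4 and 266 CPM in HG against 6.15, 5.89 and 5.98 CPM in LG, and it rose by 5.37 log2 units (SE 0.33, FDR 6.81e-09). All LG libraries lay close together at this gene, and HG1 was the lowest of the HG libraries by more than 2-fold. ARRDC4, a relative of TXNIP with the same role in glucose uptake, was at 4.91, 15.1 and 10.4 CPM in HG against 0.944, 1.11 and 1.19 CPM in LG. It rose by 3.22 log2 units (SE 0.32, FDR 1.36e-06). KLF10, a zinc finger repressor induced by ChREBP, was at 44.4, 114 and 81.3 CPM in HG against 17.5, 19.2 and 16.7 CPM in LG, and it rose by 2.16 log2 units (SE 0.23, FDR 2.37e-06). PKLR, the liver pyruvate kinase of the last step of glycolysis, was at 10.1, 22.7 and 17.4 CPM in HG against 4.72, 2.62 and 5.88 CPM in LG. It rose by 1.93 log2 units (SE 0.27, FDR 7.8e-05). The HG and LG libraries did not overlap for any of these 4 genes, as their choice among the largest rises required. In each of them HG1 was the lowest HG library and HG2 the highest. With VPA the log2 fold changes were 5.15 (FDR 2.83e-14) for TXNIP, 2.83 (FDR 9.93e-10) for ARRDC4, 1.82 (FDR 1.16e-07) for KLF10 and 2.10 (FDR 3.45e-07) for PKLR. None of the sensors was called higher. MLXIP had a log2 fold change of -0.37 (SE 0.13, FDR 0.0459), MLXIPL of 0.23 (SE 0.12, FDR 0.191), and MLX of -0.31 (SE 0.12, FDR 0.066). ARRDC2, another arrestin-related gene, fell by 0.59 log2 units (SE 0.16, FDR 0.012). The call of MLXIP was lost without HG1, HG3, LG1 or LG2, and that of ARRDC2 without HG3 or LG1. MLXIP also missed the threshold with upper quartile factors, with library size alone, with no filter and with the replicate block.

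The promoter of TXNIP holds a carbohydrate response element. The search covered the 250 bases before the start of each gene in RefSeq (GRCh38.p14), on both strands, for CACGNG or CNCGTG followed after 5 bases by either of them. The stretch of TXNIP at chr1:145996630-145996689 (minus strand) is shown from 5′ to 3′ along the gene, with the element in capitals.
TXNIP: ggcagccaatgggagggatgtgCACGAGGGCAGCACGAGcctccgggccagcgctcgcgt
Such a pair stood in 22 of 27305 promoters (0.0806%) and in 13 of the 9816 promoters of tested genes (0.132%). Of those 13 genes, 3 were higher in HG and 3 lower. Among the 10 listed sensors and targets with a promoter in the table, TXNIP alone held it within these bases. GFPT1, described below among the genes that fell, held one too.

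**Figure D2:**
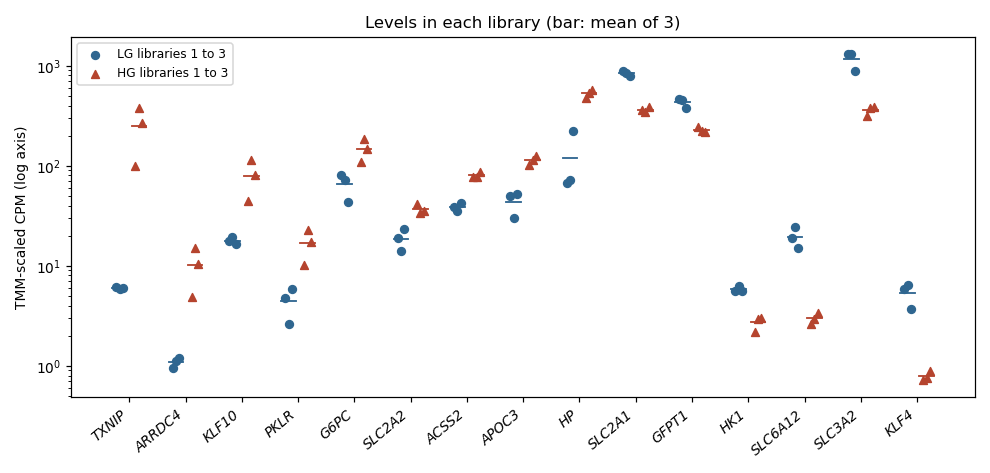
TMM-scaled CPM (log axis) of 15 genes in each of the 3 LG libraries (blue circles) and the 3 HG libraries (red triangles), in order of library number, with the mean of each group as a bar. HG and LG do not overlap for any of the 15, and LG3 is the LG library nearest to HG for all but TXNIP, KLF10 and G6PC.

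SLC2A2, the low-affinity hepatic transporter, was at 41.5, 33.4 and 35.2 CPM in HG against 18.98, 14.1 and 23.1 CPM in LG and rose by 0.97 log2 units (SE 0.17, FDR 0.00049). SLC2A1, the widely expressed transporter GLUT1, was at 362, 344 and 383 CPM in HG against 881, 849 and 787 CPM in LG and fell by 1.21 log2 units (SE 0.12, FDR 1.28e-06). Neither gene's groups overlapped. Of the 11 transporters tested, 1 was higher and 2 were lower, the other being SLC2A8 with -0.59 (FDR 0.00475), a call lost without LG1. The other 8 did not pass the test, so that the share called was near the 24.7% of all genes, and without LG3 3 were higher. In glycolysis, 1 of 24 genes was higher and 6 were lower (3 without HG3), with a median log2 fold change of -0.29. HK1, a hexokinase of high glucose affinity, was at 2.202, 2.92 and 3.03 CPM in HG against 5.66, 6.29 and 5.54 CPM in LG and fell by 1.10 log2 units (SE 0.21, FDR 0.000917). PFKFB2, which sets the level of the activator fructose 2,6-bisphosphate, fell by 0.87 log2 units (SE 0.15, FDR 0.00051), and the aldolase ALDOA fell by 0.49 log2 units (SE 0.12, FDR 0.00732). The 1 higher gene was the aldolase ALDOC with 0.66 (FDR 0.0428), a call lost without HG1, HG2, HG3, LG1 or LG2, with library size alone and with a filter of 1 CPM in 3 libraries. GAPDH, the dehydrogenase that the lower part of glycolysis starts with, had -0.43 (FDR 0.0121), a call lost without HG1 or HG3.

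Of 8 genes of gluconeogenesis, 5 were higher and 1 was lower, with a median log2 fold change of 0.51. G6PC, the catalytic subunit of glucose 6-phosphatase that releases free glucose, was at 110.3, 185 and 147 CPM in HG against 79.997, 72.6 and 43.2 CPM in LG and rose by 1.18 log2 units (SE 0.19, FDR 0.000304). PCK2, the mitochondrial phosphoenolpyruvate carboxykinase, was at 629.7, 805 and 774 CPM in HG against 463, 265 and 583 CPM in LG and rose by 0.75 log2 units (SE 0.19, FDR 0.00878). Both genes separated the groups, although LG3 was the highest LG library for PCK2 and the lowest for G6PC. The cytosolic enzyme PCK1 rose by 0.53 log2 units (SE 0.16, FDR 0.0212), and PPARGC1A, a coactivator of gluconeogenic genes, fell by 0.41 log2 units (SE 0.12, FDR 0.0211). The count of higher genes was 5 without LG3, 2 without HG1 or LG2 and 3 without HG3, and the call of PCK1 was lost without HG1 or LG2 and that of PPARGC1A without HG2, HG3, LG1 or LG2. PPARGC1A also missed the threshold with upper quartile factors and with library size alone.

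Other routes of glucose 6-phosphate held called genes of both directions. H6PD, which makes NADPH from glucose 6-phosphate inside the ER, was at 159, 197 and 171 CPM in HG against 108, 70.7 and 113 CPM in LG and rose by 0.86 log2 units (SE 0.15, FDR 0.00064). It was the 1 of 8 genes of the pentose phosphate pathway that was higher, and TALDO1, the transaldolase, the 1 that was lower with -0.40 (FDR 0.0316), a call lost without HG1, HG2, HG3, LG1 or LG3, with upper quartile factors, library size alone or the replicate block. In glycogen metabolism, 1 of 15 genes was higher (6.67%) and 2 were lower (13.3%), beside 12.0% and 12.7% of all genes. PYGB, a glycogen phosphorylase, was at 161, 206 and 188 CPM in HG against 352, 309 and 245 CPM in LG and fell by 0.71 log2 units (SE 0.14, FDR 0.00146). In the hexosamine pathway, 1 of 9 genes was higher and 3 were lower. GFPT1, the rate-limiting enzyme of this pathway, was at 247, 221 and 218 CPM in HG against 462, 456 and 377 CPM in LG and fell by 0.92 log2 units (SE 0.12, FDR 4.69e-05). NANS, which makes sialic acid, fell by 0.80 log2 units (SE 0.14, FDR 0.000385). Both genes had HG levels below all LG levels.

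In fatty acid and triglyceride synthesis, 10 of 22 genes were higher and 3 lower, with a median log2 fold change of 0.33. Without LG3, 11 were higher, against 7 without HG3. ACSS2, which makes acetyl-CoA from acetate, was at 76.4, 77.2 and 87.2 CPM in HG against 38.5, 34.9 and 42.2 CPM in LG and rose by 1.06 log2 units (SE 0.13, FDR 1.31e-05). FADS1, a desaturase of polyunsaturated fatty acids, rose by 0.84 log2 units (SE 0.12, FDR 7.88e-05), and its neighbour FADS2 rose by 0.84 log2 units (SE 0.18, FDR 0.0029). The exons of FADS1 and FADS2 overlap on opposite strands. FASN, the fatty acid synthase, was at 643, 795 and 712 CPM in HG against 741, 719.8 and 582 CPM in LG, with a log2 fold change of 0.07 (SE 0.13, FDR 0.711). ACACA, the rate-limiting carboxylase, had 0.18 (SE 0.12, FDR 0.277) and ACLY, the citrate lyase, 0.20 (SE 0.12, FDR 0.248). The groups of FASN overlapped. ACSL1, which activates long-chain fatty acids, was at 48.2, 53.8 and 50.7 CPM in HG against 107, 120.4 and 80.4 CPM in LG and fell by 1.01 log2 units (SE 0.14, FDR 7.09e-05). LPIN2, a phosphatidate phosphatase, fell by 0.58 log2 units (SE 0.12, FDR 0.00237).

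In fatty acid oxidation and ketogenesis, 7 of 22 genes were higher and none lower. The higher count was 11 with upper quartile factors and 4 without HG3 or LG1. CPT1A, the carnitine palmitoyltransferase that admits fatty acids to mitochondria, was at 113, 130.1 and 108 CPM in HG against 76.5, 90.8 and 72.9 CPM in LG and rose by 0.55 log2 units (SE 0.13, FDR 0.00469), with a log2 fold change of -0.26 (FDR 0.172) with VPA. Its groups were apart without VPA. Among apolipoproteins and lipoprotein assembly genes, 6 of 21 were higher and 2 lower. APOC3, an inhibitor of triglyceride clearance, was at 102, 114 and 125 CPM in HG against 49.4, 30.2 and 51.9 CPM in LG and rose by 1.38 log2 units (SE 0.17, FDR 1.32e-05). LIPG, the endothelial lipase that acts on high-density lipoprotein, was at 13.96, 9.53 and 13.2 CPM in HG against 2.73, 2.55 and 3.46 CPM in LG and rose by 2.07 log2 units (SE 0.21, FDR 1.36e-06). C19orf80, also known as ANGPTL8 and an inhibitor of lipoprotein lipase, was at 14.6, 51.2 and 33.8 CPM in HG against 16.8, 8.65 and 13.8 CPM in LG, with a log2 fold change of 1.35 (SE 0.30, FDR 0.00341). Its groups overlapped, as HG1 lay below LG1, and DESeq2's Wald test did not call it.

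Genes that bring proteins into the ER held the largest share of lower members among the 41 lists. Of 33 genes of translocation into the ER and oligosaccharyl transfer, 23 were lower and none higher, with a median log2 fold change of -0.53. Without LG3, 26 were lower, against 17 without HG2 or LG2 and 16 without LG1. TRAM1, a protein beside the translocation channel, was at 123, 88.02 and 106 CPM in HG against 235, 286 and 185 CPM in LG and fell by 1.15 log2 units (SE 0.16, FDR 4.35e-05). MAGT1, a subunit of the oligosaccharyl transferase, fell by 1.10 log2 units (SE 0.14, FDR 2.67e-05), and SEC61A1, the channel itself, fell by 1.03 log2 units (SE 0.14, FDR 5.42e-05). In ER-associated degradation, 17 of 26 genes were lower and none higher, and the lower count was the same without LG3 and 14 without HG3 or LG1. SEL1L, the adaptor of the HRD1 ubiquitin ligase, was at 154, 119 and 126 CPM in HG against 447, 461 and 326 CPM in LG and fell by 1.63 log2 units (SE 0.15, FDR 4.68e-07). HERPUD1, a membrane protein of the same complex, was at 244, 251 and 265 CPM in HG against 963, 944 and 687 CPM in LG and fell by 1.77 log2 units (SE 0.14, FDR 7.46e-08). In both genes every HG library lay more than 2-fold below every LG library.

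Coats of vesicles that leave and return to the ER were also lower, in 15 of 29 genes with 1 higher. Lower coat genes numbered 17 without LG3, 7 without HG3 or LG1, and 9 with upper quartile factors or library size alone. SEC24D, a cargo adaptor of COPII vesicles on chromosome 4 from 119643978 to 119759838 of GRCh37, was at 34.5, 31.7 and 31.7 CPM in HG against 124, 114 and 90.8 CPM in LG and fell by 1.74 log2 units (SE 0.14, FDR 7.46e-08). MCFD2, a cargo receptor for clotting factors, fell by 1.11 log2 units (SE 0.14, FDR 2.41e-05). Every HG library of SEC24D lay more than 2-fold below every LG library.

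Sensors of the unfolded protein response were lower in 7 of 13 genes and higher in 1. Without LG3, 8 were lower, against 6 without HG1, HG2, HG3 or LG1. EIF2AK3, the kinase PERK that slows translation, was at 27.5, 21.7 and 24.1 CPM in HG against 51.6, 52.1 and 43.2 CPM in LG and fell by 1.00 log2 units (SE 0.14, FDR 7.31e-05). ERN1, the kinase and nuclease IRE1 that splices XBP1, fell by 0.89 log2 units (SE 0.15, FDR 0.000281). XBP1 itself, measured over all its reads and not by splicing, had a log2 fold change of 0.29 (SE 0.12, FDR 0.087). The ER stress element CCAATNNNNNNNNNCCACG, bound by ATF6 with NF-Y, stood in 22 of 27305 promoters (0.0806%) and in 13 of the 9816 promoters of tested genes, on either strand of the 250 bases before the start. Of those 13 genes, chaperones included, 11 were lower in HG and none higher, beside 12.7% lower and 12.0% higher of all genes. XBP1, one of the others, was the only member of the 41 lists found with the element, so the 11 lie outside these lists. In the PERK and ATF4 response, 12 of 21 genes were lower and 4 higher. The lower count was 12 without LG3, 7 without HG3 and 6 without LG1. DDIT3, the stress factor CHOP, was at 20.6, 18.8 and 18.4 CPM in HG against 98.2, 41.8 and 48.1 CPM in LG and fell by 1.70 log2 units (SE 0.23, FDR 4.04e-05). LG1 stood above the other LG libraries at this gene, and all HG libraries lay below them. ATF4, the factor that drives the response, fell by 0.40 log2 units (SE 0.14, FDR 0.0353), a call lost without HG1, HG2, HG3, LG1 or LG2, with upper quartile factors, library size alone or the replicate block, and in one fit of all 12 libraries. Opposite to these, CHAC1, which breaks down glutathione, was at 3.24, 3.77 and 4.43 CPM in HG against 2.03, 1.56 and 1.74 CPM in LG and rose by 1.11 log2 units (SE 0.23, FDR 0.00207), and CTH, which makes cysteine, rose by 0.74 log2 units (SE 0.14, FDR 0.000765).

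Promoters of 3 of the 19 genes of this list with a sequence held the amino acid response element TGATGCAA on either strand, an element bound by ATF4 and its partners. The element stood in 0.820% of all promoters and in 0.397% of those of tested genes, of which 6 were higher and 9 lower among 39. The third gene was FGF21, a hormone of the fasted liver, with -1.05 (FDR 0.0158), a call lost without HG1, HG3, LG1 or LG2. CHAC1 and HERPUD1 are shown because they carry the same letters and moved in opposite directions. The stretches are at chr15:40953236-40953295 (plus strand) and chr16:56931940-56931999 (plus strand), with the element, read here on the other strand, in capitals.
CHAC1: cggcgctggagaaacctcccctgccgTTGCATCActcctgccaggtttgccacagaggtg
HERPUD1: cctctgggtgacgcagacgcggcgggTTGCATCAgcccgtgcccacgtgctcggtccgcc

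Transporters of amino acids were lower in 14 of 25 genes and higher in 2, with a median log2 fold change of -0.40. The lower count was 16 without LG3, 8 without HG3 or LG1, and 9 without HG2 or with library size alone. SLC3A2, the heavy chain shared by several exchangers, was at 316, 379 and 389 CPM in HG against 1322, 1320.4 and 888 CPM in LG and fell by 1.70 log2 units (SE 0.15, FDR 4.54e-07). SLC6A12, a betaine and GABA transporter on chromosome 12 from 299243 to 323736 of GRCh37, was at 2.62, 2.95 and 3.36 CPM in HG against 19.05, 24.2 and 15.2 CPM in LG and fell by 2.71 log2 units (SE 0.20, FDR 4.08e-08). Both genes separated the groups by more than 2-fold between the nearest libraries. SLC38A4, a transporter of neutral amino acids, was at 15.7, 10.9 and 14.8 CPM in HG against 7.23, 8.205 and 7.36 CPM in LG and rose by 0.86 log2 units (SE 0.18, FDR 0.00198). Of the cytosolic aminoacyl-tRNA synthetases, 1 of 20 was higher and 3 were lower, led by WARS, the tryptophan enzyme, with -1.35 (FDR 3.7e-06). In serine and one-carbon metabolism, 5 of 19 genes were higher and 2 lower. None of these calls was made without LG1, and 1 higher gene was called without HG1, 2 without HG3 or LG2, and 3 without HG2.

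Osmolyte genes, which hypertonic medium raises through the factor NFAT5, were lower in 5 of 11 and higher in 1. Without LG1 the lower count was 3, and without LG3 it was 5. Besides SLC6A12, which an NFAT5 site is known to control, the taurine transporter SLC6A6 was at 41.2, 51.96 and 42.2 CPM in HG against 76.01, 78.2 and 70.3 CPM in LG and fell by 0.73 log2 units (SE 0.13, FDR 0.000578). AQP3, a channel for water and glycerol, was at 29.4, 37.3 and 37.2 CPM in HG against 97.2, 86.7 and 48.6 CPM in LG and fell by 1.16 log2 units (SE 0.19, FDR 0.000281). In each of these 3 genes the HG libraries lay below the LG libraries. NFAT5 had a log2 fold change of -0.30 (SE 0.15, FDR 0.161). AKR1B1, the aldose reductase that makes sorbitol from glucose, was at 56.3, 67.7 and 66.03 CPM in HG against 90.9, 91.8 and 81.8 CPM in LG and fell by 0.48 log2 units (SE 0.12, FDR 0.00925), a call lost without LG1.

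Genes of the lysosome and of autophagy were lower in 22 of 34 and higher in none, with a median log2 fold change of -0.53. Without LG3, 26 were lower, against 16 without HG1 and 15 without HG3 or LG1. With VPA 19 were lower and 1 higher. LAMP3, a lysosomal membrane protein on chromosome 3 from 182840003 to 182881627 of GRCh37, was at 0.208, 0.438 and 0.268 CPM in HG against 5.49, 4.7999 and 2.28 CPM in LG and fell by 3.76 log2 units (SE 0.37, FDR 1.33e-06). LG3 was the lowest LG library, and the highest HG library lay more than 5-fold below it. RRAGC, one of the small GTPases that bring the kinase mTORC1 to the lysosome, was at 27.6, 24.2 and 24.3 CPM in HG against 54.4, 77.04 and 44.9 CPM in LG and fell by 1.21 log2 units (SE 0.17, FDR 5.59e-05). FLCN, which acts on these GTPases, was at 19.5, 22.1 and 19.8 CPM in HG against 44.7, 56.1 and 34.3 CPM in LG and fell by 1.14 log2 units (SE 0.16, FDR 8.55e-05). SQSTM1, the autophagy receptor p62, fell by 0.91 log2 units (SE 0.13, FDR 0.000106), and the membrane protein LAMP1 fell by 0.85 log2 units (SE 0.13, FDR 0.000152). TFEB and TFE3, factors that drive lysosomal genes, had -0.40 (SE 0.15, FDR 0.0656) and -0.57 (SE 0.14, FDR 0.00569), and the call of TFE3 was lost without LG1. GAA and CTSD, a glucosidase and a protease of the lysosome, were the only members with a positive log2 fold change, and neither passed the test.

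**Figure D3:**
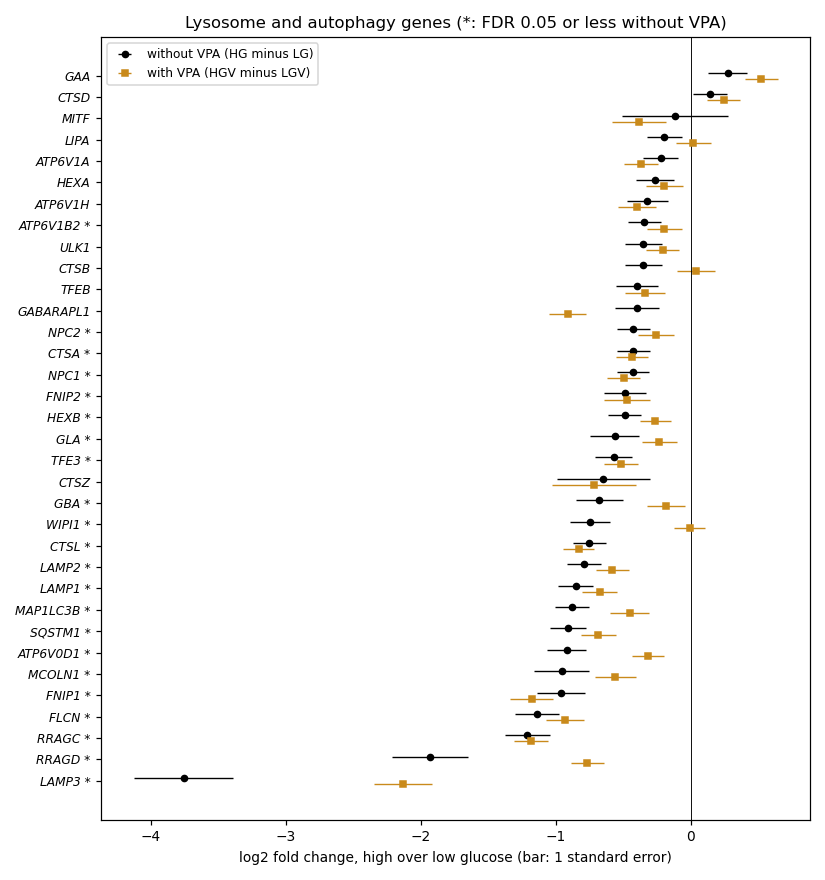
Log2 fold change of high over low glucose for the 34 lysosome and autophagy genes, without VPA (black circles) and with VPA (orange squares), with 1 standard error as bars and an asterisk where the FDR without VPA was 0.05 or less. Without VPA 32 of 34 values lie below 0, from -3.76 for LAMP3 to 0.27 for GAA.

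Lysosomal promoters often hold the element TCACGTGA, called CLEAR and the same on both strands, which TFEB and TFE3 bind. This element was added to the search after the values of the lysosomal genes had been seen. It stood in 243 of 27305 promoters (0.890%), in 166 of the 9816 of tested genes (1.69%) and in 5 of the 24 lysosomal genes with a promoter. Of these 5, GAA had a positive log2 fold change and was not called. Of the 166 genes, 37 were lower in HG and 8 higher, beside 12.7% lower and 12.0% higher of all genes. Among protein-coding genes of 2 log2 CPM and over, 16.2% were lower and 10.3% higher. The 4 of the 5 lysosomal genes that were called lower are shown, with the element in capitals, namely LAMP1 at chr13:113297179-113297238 (plus strand), the calcium channel MCOLN1 at chr19:7522564-7522623 (plus strand), the protease CTSA at chr20:45891275-45891334 (plus strand) and the proton pump subunit ATP6V0D1 at chr16:67481184-67481243 (minus strand).
LAMP1: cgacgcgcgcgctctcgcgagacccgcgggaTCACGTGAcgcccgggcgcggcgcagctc
MCOLN1: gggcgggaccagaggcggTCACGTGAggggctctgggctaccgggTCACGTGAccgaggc
CTSA: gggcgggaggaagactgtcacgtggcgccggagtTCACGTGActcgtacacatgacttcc
ATP6V0D1: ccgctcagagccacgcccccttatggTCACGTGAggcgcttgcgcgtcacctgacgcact
The element ended 7 to 52 bases before the start of these genes, and MCOLN1 held a pair of them. The letters contain CACGTG, which fits CACGNG of the carbohydrate response element, but none of the 4 held the full pair. MCOLN1 was at 3.66, 5.202 and 4.805 CPM in HG against 11.1, 7.803 and 7.74 CPM in LG, with a log2 fold change of -0.96 (SE 0.20, FDR 0.00254). ATP6V0D1 was at 41.9, 47.96 and 45.8 CPM in HG against 96.8, 94.3 and 65.5 CPM in LG, with -0.92 (SE 0.15, FDR 0.000213). CTSA was at 93.8, 104 and 102 CPM in HG against 147, 121 and 135 CPM in LG, with -0.43 (SE 0.12, FDR 0.0152), a call lost without HG1, HG3 or LG1.

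Genes of DNA replication and of mitosis were more often higher than lower in HG. In DNA replication, 19 of 50 genes were higher and 1 lower, with a median log2 fold change of 0.40. In mitosis, 20 of 34 were higher and 1 lower, with a median log2 fold change of 0.56. These counts varied with the library left out. For replication the higher count was 30 without LG3, 9 without HG3 and 6 without LG1, and for mitosis it was 23 without LG3, 12 without HG2 and 6 without LG1. With VPA, 34 replication genes and 24 mitotic genes were higher, in 6 other libraries. GINS1, a subunit of the replicative helicase, was at 25.7, 32.7 and 30.2 CPM in HG against 9.96, 11.4 and 16.2 CPM in LG and rose by 1.24 log2 units (SE 0.18, FDR 8.3e-05). POLA2, a subunit of the polymerase that starts each strand, was at 4.37, 7.101 and 6.603 CPM in HG against 2.83, 1.51 and 3.82 CPM in LG and rose by 1.15 log2 units (SE 0.28, FDR 0.00551). GINS2, from the same helicase complex as GINS1, was at 10.1, 13.7 and 14.2 CPM in HG against 4.86, 4.71 and 9.68 CPM in LG and rose by 0.98 log2 units (SE 0.24, FDR 0.0059). LG3 was the highest LG library in all of these, as in 38 of the 50 replication genes, and no gene of the 3 had overlapping groups. The call of GINS2 was lost without LG1.

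CDK1, the kinase that starts mitosis, was at 22.3, 25.2 and 26.6 CPM in HG against 6.54, 13.2 and 13.5 CPM in LG and rose by 1.15 log2 units (SE 0.21, FDR 0.000657). NDC80, which ties chromosomes to the spindle, was at 16.1, 17.01 and 17.7 CPM in HG against 5.31, 9.91 and 9.996 CPM in LG and rose by 1.00 log2 units (SE 0.20, FDR 0.00154). LG1 was the lowest library for both, as for 33 of the 34 mitosis genes. AURKB, a mitotic kinase, rose by 0.83 log2 units (SE 0.21, FDR 0.00695), although HG1 and LG3 overlapped. The 1 replication gene called lower was CDC6, which loads the helicase. It was at 16.5, 20.3 and 20.6 CPM in HG against 42.2, 33.2 and 31.2 CPM in LG and fell by 0.89 log2 units (SE 0.16, FDR 0.000469), and in mitosis CKS2, a partner of CDK1, fell by 0.50 log2 units (SE 0.15, FDR 0.0224). Among regulators of the G1 phase, 3 of 24 were higher (12.5%, near the 12.0% of all genes) and none lower. E2F1, a factor that drives replication genes, was at 25.6, 35.4 and 36.1 CPM in HG against 19.5, 12.7 and 21.3 CPM in LG and rose by 0.86 log2 units (SE 0.19, FDR 0.00268), and E2F2 rose by 1.38 log2 units (SE 0.33, FDR 0.00505). MYC had 0.06 (SE 0.12, FDR 0.746). The call of AURKB was lost without LG1, that of E2F2 without LG1 and that of CKS2 without HG1, HG3 or LG2. CKS2 also missed the threshold with upper quartile factors and with library size alone.

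**Figure D4:**
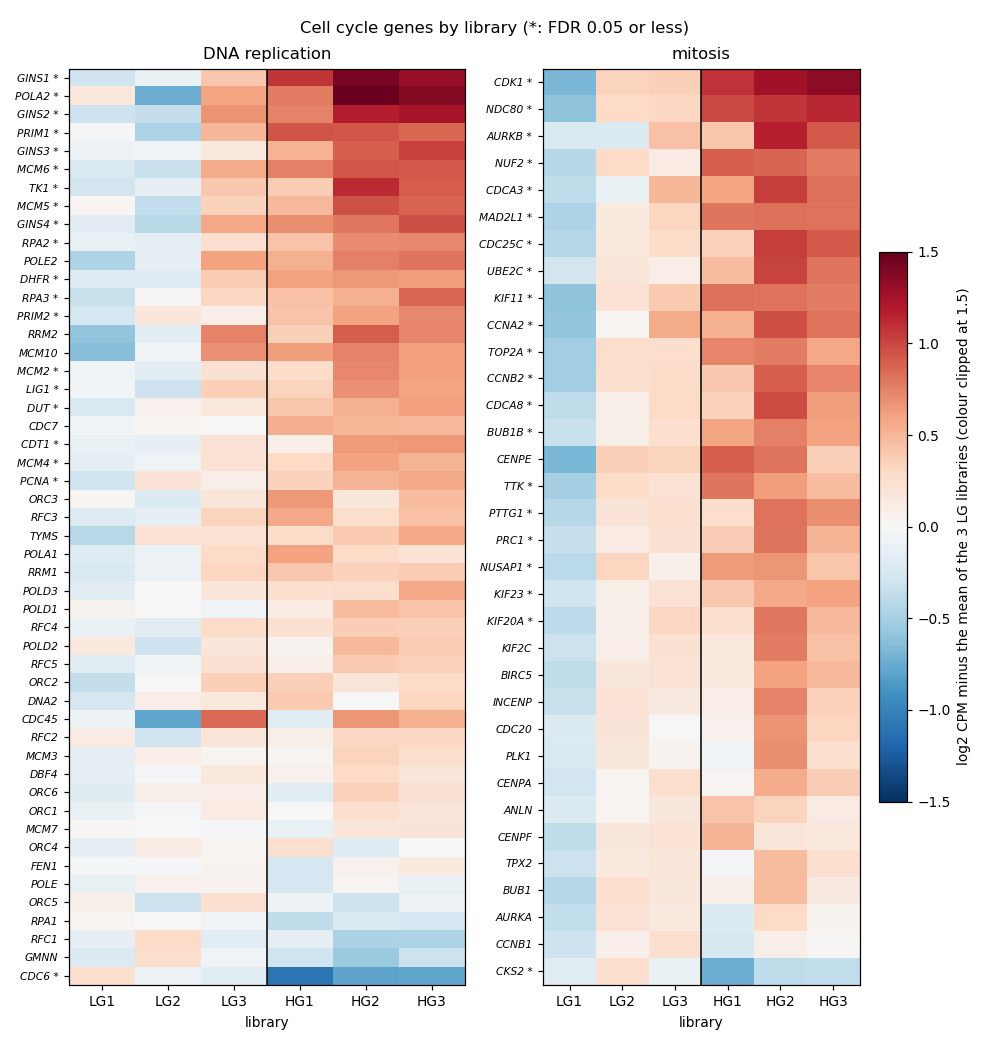
Log2 CPM of each DNA replication gene (left, 50 genes) and mitosis gene (right, 34 genes) in the 6 libraries, minus the mean of the 3 LG libraries, as colour from blue (lower) to red (higher), clipped at 1.5. An asterisk marks an FDR of 0.05 or less, as for 20 and 21 genes, and LG1 is the bluest column for 33 of the 34 mitosis genes.

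Replication promoters often carry an E2F site, searched on both strands as TTTGGCGC, TTTCCCGC, TTTGGCGG or TTTCCCGG. Of the 42 replication genes with a promoter, 17 held one within the 250 bases before the start, against 1014 of 27305 promoters (3.71%) and 582 of the 9816 of tested genes (5.93%). Of the 582 genes, 67 were higher and 74 lower, shares that lie near those over all genes. POLA2 at chr11:65261902-65261961 (plus strand), GINS2 at chr16:85688955-85689014 (minus strand), CDT1 at chr16:88803729-88803788 (plus strand), PCNA at chr20:5126648-5126707 (minus strand) and CDC6 at chr17:40287819-40287878 (plus strand) are shown with the sites in capitals, the last because it fell while the others rose.
POLA2: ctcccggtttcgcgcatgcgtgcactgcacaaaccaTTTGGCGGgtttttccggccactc
GINS2: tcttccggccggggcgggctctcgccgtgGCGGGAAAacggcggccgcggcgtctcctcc
CDT1: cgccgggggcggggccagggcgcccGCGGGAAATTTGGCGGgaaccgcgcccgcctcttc
PCNA: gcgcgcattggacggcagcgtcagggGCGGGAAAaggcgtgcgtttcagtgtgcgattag
CDC6: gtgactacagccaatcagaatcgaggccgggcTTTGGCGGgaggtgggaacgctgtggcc
CDT1, which loads the helicase with CDC6, was at 21.6, 31.6 and 31.8 CPM in HG against 18.98, 18.7 and 23.5 CPM in LG, with a log2 fold change of 0.48 (SE 0.17, FDR 0.0437). PCNA, the clamp that holds polymerases on DNA, was at 106, 119 and 124 CPM in HG against 67.8, 96.6 and 89.04 CPM in LG, with 0.46 (SE 0.14, FDR 0.0205). The call of CDT1 was lost without HG2, HG3, LG1 or LG2 and with the replicate block, and that of PCNA without HG2, HG3 or LG1.

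Carrier proteins of plasma and acute phase proteins were higher in 12 of 27 genes and lower in 1, with a median log2 fold change of 0.45. Without LG3, 14 were higher, against 10 without HG3 or LG1. HP, the haemoglobin scavenger haptoglobin, was at 473, 539 and 570.1 CPM in HG against 66.5, 71.5 and 224 CPM in LG and rose by 2.13 log2 units (SE 0.30, FDR 7.95e-05). SERPINA3, an antichymotrypsin, was at 50.3, 41.4 and 40.5 CPM in HG against 8.32, 7.12 and 19.5 CPM in LG and rose by 1.91 log2 units (SE 0.26, FDR 4.63e-05). HAMP, the iron hormone hepcidin, was at 4.85, 8.36 and 6.87 CPM in HG against 0.699, 0.426 and 3.94 CPM in LG and rose by 1.95 log2 units (SE 0.47, FDR 0.00564), a call lost without LG1 and by DESeq2's Wald test. In all of these LG3 lay between the other LG libraries and the HG libraries. HP has a near-identical copy, HPR, with which reads can be shared. SOCS3, a feedback inhibitor of cytokine signals, was at 15.5, 16.3 and 14.1 CPM in HG against 4.23, 3.05 and 5.13 CPM in LG and rose by 1.89 log2 units (SE 0.20, FDR 2.28e-06). LG3 was nearest HG there too, without overlap. The retinol carrier RBP4 was at 1150.3, 1420.1 and 1412 CPM in HG against 825, 868 and 766 CPM in LG and rose by 0.70 log2 units (SE 0.13, FDR 0.000637).

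The factors of hepatocyte identity mostly did not pass the test, with 2 of 17 higher and 3 lower. HNF4A was at 384, 395 and 383 CPM in HG against 428, 347 and 396 CPM in LG, with a log2 fold change of -0.01 (SE 0.12, FDR 0.954). GATA4 fell by 0.65 log2 units (SE 0.15, FDR 0.00435). Nuclear receptors of liver metabolism were lower in 7 of 22 genes and higher in 1. The lower count was 4 without HG2 and 3 without HG3 or LG1. PPARA, which drives fatty acid oxidation, was at 73.5, 63.9 and 58.01 CPM in HG against 107, 109 and 93.1 CPM in LG and fell by 0.66 log2 units (SE 0.13, FDR 0.00118). ESRRA, a regulator of mitochondrial genes, fell by 0.76 log2 units (SE 0.14, FDR 0.000853). The groups overlapped for neither of these receptors.

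Cytochromes P450 and conjugating enzymes moved both ways, with 8 of 28 higher and 7 lower. The lower count was 4 without HG2, with upper quartile factors, library size alone or the replicate block, and 3 without HG3 or LG1. CYP4F2, which hydroxylates fatty acids and vitamins, was at 3.07, 3.24 and 3.78 CPM in HG against 0.874, 0.662 and 0.992 CPM in LG and rose by 2.00 log2 units (SE 0.26, FDR 2.67e-05). The oestrogen sulphotransferase SULT1E1 rose by 1.56 log2 units (SE 0.26, FDR 0.000355). CYP1A1, the target of the aryl hydrocarbon receptor, was at 6.31, 5.96 and 6.33 CPM in HG against 24.1, 26.9 and 17.1 CPM in LG and fell by 1.87 log2 units (SE 0.18, FDR 1.08e-06). UGT2B4, a glucuronosyltransferase of bile acids, was at 13.5, 13.7 and 15.6 CPM in HG against 43.6, 66.2 and 32.96 CPM in LG and fell by 1.74 log2 units (SE 0.20, FDR 6.13e-06). It belongs to a family of close copies among which reads may be split. All HG libraries lay outside the LG range for these 4 genes. In the urea cycle and amino acid breakdown, 4 of 23 genes were higher and 5 lower (2 without HG3 or LG1), led by ARG2, the mitochondrial arginase, at 27.1, 30.8 and 32.02 CPM in HG against 105, 114 and 64.3 CPM in LG, which fell by 1.66 log2 units (SE 0.17, FDR 2.31e-06).

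Genes of the NRF2 antioxidant response were lower in 12 of 26 and higher in 2. Without LG3, 13 were lower, against 10 without HG1, HG3 or LG1. AKR1B10, a reductase of lipid aldehydes, was at 21.3, 20.9 and 21.8 CPM in HG against 48.9, 70.1 and 68.2 CPM in LG and fell by 1.55 log2 units (SE 0.15, FDR 1.05e-06). AKR1C1, a reductase of steroids, was at 479, 519.9 and 563 CPM in HG against 1116, 1269 and 1045 CPM in LG and fell by 1.13 log2 units (SE 0.12, FDR 4.66e-06), and its near-identical copy AKR1C2 fell by 1.00 log2 units (SE 0.12, FDR 9.93e-06). NFE2L2, the gene of NRF2, had -0.12 (SE 0.13, FDR 0.537). FTL, the light chain of ferritin, was at 2224, 2623 and 2749 CPM in HG against 3991, 3491 and 3765 CPM in LG and fell by 0.57 log2 units (SE 0.13, FDR 0.00332), and with VPA it had -0.14 (FDR 0.474). Each of the 4 lower genes separated HG from LG. Metallothioneins and zinc transporters split, with 3 of 12 higher and 4 lower. MT1G, a metal-binding protein with close copies, was at 4.88, 3.27 and 4.19 CPM in HG against 8.07, 6.95 and 16.4 CPM in LG and fell by 1.35 log2 units (SE 0.27, FDR 0.00134), and with VPA it had 0.00 (FDR 0.999). The zinc and iron importer SLC39A14 was at 1276, 1636 and 1528 CPM in HG against 2249, 2712 and 2095 CPM in LG and fell by 0.67 log2 units (SE 0.13, FDR 0.00165).

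Immediate early genes and others of the growth factor response were lower in 12 of 31 and higher in 1. The lower count was 16 without LG3, 7 without HG1, and 6 without HG3, LG1 or LG2, and also 6 with upper quartile factors or library size alone. KLF4, a zinc finger factor of the growth response, was at 0.714, 0.7598 and 0.886 CPM in HG against 5.87, 6.36 and 3.73 CPM in LG and fell by 2.75 log2 units (SE 0.27, FDR 1.08e-06). IER3, a survival gene of the early response, was at 60.8, 86.6 and 70.97 CPM in HG against 204, 173 and 99.3 CPM in LG and fell by 1.13 log2 units (SE 0.19, FDR 0.000418). The 1 higher member was CTGF, a matrix-associated target of YAP and TGF-beta, at 739, 999.7 and 910.4 CPM in HG against 251, 293 and 385 CPM in LG, which rose by 1.51 log2 units (SE 0.15, FDR 1.93e-06). All HG libraries of CTGF lay above all LG libraries. TGFB1 itself was at 55.3, 67.9 and 64.6 CPM in HG against 142, 141 and 91.3 CPM in LG and fell by 0.99 log2 units (SE 0.15, FDR 0.000174), and BMP4, a ligand of the BMP pathway, fell by 0.74 log2 units (SE 0.13, FDR 0.000455). Both belong to the BMP and TGF-beta list, in which 4 of 17 genes were higher and 2 lower. The higher count was 1 without LG1 or by DESeq2's Wald test, and 2 without LG2 or any HG library. BMP6, the ligand that drives hepcidin, was at 0.655, 0.7598 and 0.805 CPM in HG against 0.384, 0.331 and 0.2904 CPM in LG and rose by 1.15 log2 units (SE 0.34, FDR 0.019), a call lost without HG2 or HG3 and by DESeq2's Wald test.

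Lists of heat shock, hypoxia, inflammation and the proteasome were called in part. Among cytosolic heat shock genes, 3 of 25 were higher (12.0%) and 5 lower (20.0%), beside 12.0% and 12.7% of all genes. The small heat shock protein HSPB8, which averaged under 1 log2 CPM, fell by 1.68 log2 units (SE 0.42, FDR 0.00719), a call lost without LG1 or LG2. HSPH1, a partner of HSP70 in the release of aggregates, fell by 0.83 log2 units (SE 0.17, FDR 0.00217). The lower count was 2 without LG1 or LG2 and 9 without LG3, and no heat shock gene was higher without HG3 or LG1. In the hypoxia response, 1 of 21 was higher and 2 were lower, with 7 higher and 4 lower without LG3, and HIF1A, the oxygen-regulated factor, had -0.24 (SE 0.12, FDR 0.175). ANGPTL4, an inhibitor of lipoprotein lipase, had 0.85 (FDR 0.00443), and the transferrin receptor TFRC -0.65 (FDR 0.00209). In the list of NF-kB and chemokine genes, 3 of 14 were lower and none higher, with CCL20, a chemokine, at 57.02, 49.4 and 53.6 CPM in HG against 83.7, 88.2 and 122 CPM in LG, which fell by 0.88 log2 units (SE 0.14, FDR 0.000277). Of the proteasome subunits, 3 of 31 were lower and none higher, a share of 9.68% beside 12.7% of all genes. Without LG3, 5 were lower, and without HG2, HG3 or LG1, 1 was. In MHC class I presentation, 3 of 18 were higher (16.7%, beside 12.0% of all genes) and none lower. Among the higher were HLA-B, which presents peptides, with 0.71 (FDR 0.000451), and PSMB9, a subunit of the immunoproteasome, with 1.35 (FDR 0.00318). HLA-B belongs to a family of close and variable copies, so that its counts are uncertain.

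In the insulin and IGF axis, 4 of 22 genes were higher (18.2%) and 5 lower (22.7%), beside 12.0% and 12.7% of all genes. Without HG2, 2 were higher, and without HG3 or LG1, 3 were lower. IGF2, a fetal growth factor that liver cancer cells often express, was at 7036, 8377 and 7082 CPM in HG against 3738, 3071 and 3575 CPM in LG and rose by 1.12 log2 units (SE 0.13, FDR 8.84e-06). Its receptor IGF2R, which takes IGF2 to the lysosome, was at 507, 551 and 493 CPM in HG against 829.7, 885 and 639 CPM in LG and fell by 0.60 log2 units (SE 0.13, FDR 0.00308). TRIB3, an inhibitor of the kinase AKT and a target of ATF4, fell by 0.81 log2 units (SE 0.15, FDR 0.000657). HG and LG did not overlap for IGF2 or IGF2R. Among integrins, laminins and collagens, 5 of 30 were higher (16.7%) and 3 lower (10.0%), near the 12.0% and 12.7% of all genes. Without LG3, 5 were lower, without HG1 or HG2, 1 was, and without HG3, LG1 or LG2, none was. COL6A1, a chain of collagen VI, was at 16.6, 16.6 and 16.5 CPM in HG against 8.74, 9.03 and 8.08 CPM in LG and rose by 0.95 log2 units (SE 0.16, FDR 0.000281), against 0.30 (FDR 0.0805) with VPA.

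Of 63 nuclear genes of the respiratory chain, none was higher and 4 were lower, with a median log2 fold change of -0.07, and 3 of the 13 mRNAs encoded by mitochondria were higher and none lower. The mitochondrial count was 1 without HG2, HG3 or LG1, 4 without LG3, and 5 with upper quartile factors or library size alone, and with VPA 1 was higher and 2 were lower. The nuclear count of lower genes was 1 without HG1 and 2 without HG2, LG1 or LG2. Mitochondrial genes took 5.70% to 6.28% of all counts in LG and 7.499% to 7.72% in HG. MT-CO3, a subunit of cytochrome oxidase, was at 4303, 4580.2 and 5079.5 CPM in HG against 2785, 2957 and 3219.8 CPM in LG and rose by 0.64 log2 units (SE 0.12, FDR 0.00116). SDHB, a nuclear-encoded subunit of succinate dehydrogenase, fell by 0.61 log2 units (SE 0.13, FDR 0.00209). Among transfer RNA genes of mitochondria, MT-TI, MT-TM, MT-TF, MT-TD, MT-TL1 and MT-TV fell, and only MT-TY and MT-TC rose. Transfer RNA genes are short genes that poly(A) selection is not meant to keep. MT-TI was at 0.684, 1.29 and 1.13 CPM in HG against 8.77, 12.04 and 3.94 CPM in LG and fell by 2.99 log2 units (SE 0.34, FDR 6.13e-06), while MT-TY and MT-TC, named after their values were seen, were at 68.2, 74.5 and 90.6 CPM in HG against 25.8, 27.03 and 51.96 CPM in LG and at 25.1, 25.5 and 31.8 CPM in HG against 6.78, 9.95 and 18.6 CPM in LG. MT-TY and MT-TC overlap each other. The groups of MT-TI, MT-TY and MT-TC were apart, with LG3 nearest HG.

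Outside the lists, the largest rises included genes of several kinds. MUC5B, a secreted mucin, was at 5.18, 12.8 and 7.46 CPM in HG against 1.26, 0.993 and 1.16 CPM in LG and rose by 2.90 log2 units (SE 0.29, FDR 1.51e-06). TNNI2, a troponin subunit, was at 19.5, 29.7 and 25.5 CPM in HG against 3.98, 3.405 and 8.45 CPM in LG and rose by 2.23 log2 units (SE 0.26, FDR 8.31e-06), and PIK3IP1, an inhibitor of PI3 kinase, rose by 2.00 log2 units (SE 0.22, FDR 5.42e-06). Among the largest falls, KLHDC7B, a protein of the kelch family, was at 5.24, 6.02 and 7.09 CPM in HG against 50.3, 24.7 and 28.5 CPM in LG and fell by 2.49 log2 units (SE 0.23, FDR 4.68e-07). RAB17, a GTPase of endosome traffic, was at 54.99, 52.6 and 50.9 CPM in HG against 188, 217 and 149 CPM in LG and fell by 1.80 log2 units (SE 0.14, FDR 7.31e-08). NUCB2, the precursor of nesfatin, fell by 1.92 log2 units (SE 0.17, FDR 3.82e-07). RAMP1, a partner of the calcitonin-like receptor, fell by 2.16 log2 units (SE 0.25, FDR 6.58e-06), and ASB2, an adaptor of ubiquitin ligases, fell by 2.59 log2 units (SE 0.29, FDR 5.01e-06). By the change in mean level, ACTG1, a cytoplasmic actin with many copies in the genome, was at 1402, 1379 and 1531 CPM in HG against 2573, 2387 and 1978 CPM in LG and fell by 0.69 log2 units (SE 0.13, FDR 0.000853). AGT, the precursor of angiotensin, was at 2023, 2257 and 2403 CPM in HG against 1592, 1446 and 1677 CPM in LG and rose by 0.50 log2 units (SE 0.12, FDR 0.00622). HG and LG were apart for each gene of this paragraph, which the choice of the largest rises and falls required. ACTG1 and AGT were chosen by their change in mean CPM, without that requirement.

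Long non-coding RNAs leaned to HG, as did protein-coding genes under 2 log2 CPM. Of 1643 tested, 279 were higher and 84 lower, with a median log2 fold change of 0.26, against 1491 and 1802 of 12532 protein-coding genes. The long non-coding RNA counts were 125 and 43 without LG1, 155 and 60 without HG1, 182 and 60 without HG2, 158 and 42 without HG3, 165 and 48 without LG2, 400 and 118 without LG3, and 335 and 67 with upper quartile factors. Among genes of 1 to 2 log2 CPM, the shares were 22.2% higher and 6.33% lower for long non-coding RNAs and 22.7% and 7.47% for protein-coding genes. At 2 log2 CPM and over they were 25.3% and 7.85% for long non-coding RNAs and 10.3% and 16.2% for protein-coding genes. The median level in that range was 8.13 CPM for long non-coding RNAs and 33.5 CPM for protein-coding genes. HCP5, transcribed within the MHC region, was at 5.83, 6.897 and 6.17 CPM in HG against 0.874, 0.7803 and 1.28 CPM in LG and rose by 2.67 log2 units (SE 0.24, FDR 4.68e-07). NEAT1, the scaffold of nuclear paraspeckles and named after its values were seen, was at 280.004, 178 and 178 CPM in HG against 52.6, 54.3 and 149 CPM in LG and rose by 1.31 log2 units (SE 0.28, FDR 0.00257). LG3 lay nearer to the HG libraries than to the other LG libraries of NEAT1, and the call was lost without HG1 and by DESeq2's Wald test. MIR22HG, the host of miR-22, was at 8.63, 6.66 and 8.19 CPM in HG against 30.9, 35.6 and 20.5 CPM in LG and fell by 1.89 log2 units (SE 0.19, FDR 1.92e-06).

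The glucose difference was measured a second time in cells given VPA, in libraries that the comparison of HG with LG did not use. Some of these values are given above. Of 16208 genes tested between HGV and LGV, 3444 were higher with high glucose (21.2%) and 3160 lower (19.5%). Over the 15271 genes tested in both, which are not independent of each other, the log2 fold changes without and with VPA correlated with Pearson's r of 0.779 and Spearman's rho of 0.766. Of 3789 genes called without VPA, 3672 (96.9%) kept their sign with VPA, and 2863 (75.6%) were called the same way, while 10 were called the other way. These 2863 were 45.9% of the 6243 called with VPA. The interaction, which tests whether the glucose difference itself differed with VPA, was called for 7 of 16389 genes (0.0427%) with edgeR's quasi-likelihood test, 1852 at an unadjusted p under 0.05. The likelihood ratio test called 202 and DESeq2's Wald test 162. With 1 library left out the quasi-likelihood test called 217 genes without LG2, 67 without LG3, 22 without LGV1, 2 without HG2 and 1 without any of the others. All 7 were also called between HG and LG, and are described in the closing section.

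**Figure D5:**
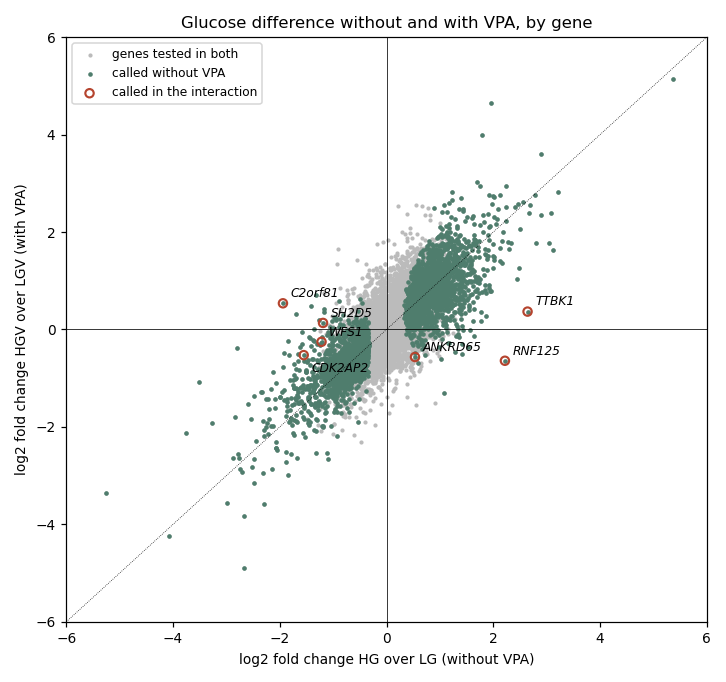
Log2 fold change of high over low glucose with VPA (vertical axis) against that without VPA (horizontal axis) for 15271 genes, with genes called without VPA in green and the 7 genes called in the interaction circled and named. The dotted line marks equal values, and RNF125, C2orf81, SH2D5 and ANKRD65 lie on opposite sides of 0 in the 2 comparisons.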

How the data were processed

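Poly(A) RNA of HepG2 cells, an established line, was made into directional libraries and sequenced. Per the study's methods and the labels, the authors aligned reads with STAR to GRCh37 (Ensembl 75 annotation), counted them per gene with featureCounts, and left out genes averaging under 10 reads per sample. The deposited values are these raw read counts, 29816124 to 45572694 per untreated library. Groups followed the labels (3 libraries each).

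Genes averaging 10 or more counts in the 6 untreated libraries were tested with edgeR 4.0.16 (R 4.3.3): TMM factors, quasi-likelihood fit and test on HG and LG alone, two-sided, with Benjamini-Hochberg adjustment over all genes and an FDR threshold of 0.05. HGV and LGV were tested alike, and the interaction in one fit of all 12 libraries. CPM used TMM-scaled totals. Scripts were tested on simulated data. Alternatives were DESeq2 size factors, upper quartile factors, library size alone, likelihood ratio and DESeq2 1.42.0 Wald tests, no filter, a filter of 1 CPM in 3 libraries, a replicate block, all libraries in one fit, and each replicate left out.

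The members and 41 lists were chosen with earlier results of these data known. Named genes were the 20 largest rises and falls of at least 1 log2 CPM with all 9 library pairs on one side, up to 3 per list and direction plus reference genes, the 10 largest changes in mean CPM per direction, and genes called in the interaction. LAMP1, MCOLN1, CTSA, ATP6V0D1, CDT1, PCNA, NEAT1, MT-TY, MT-TC, MT-TM, MT-TD, MT-TL1 and MT-TV, and the CLEAR motif, were added after values were seen. GENCODE annotation on GRCh37 gave the coordinates of 15975 genes by identifier and of 107 by symbol, and 307 had none. Promoters came from RefSeq (GRCh38.p14). A count of 3 reads served as the floor, which covers counting error only. Some genes are not reported here.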

Additional observations from a re-analysis of the deposited data

Results flagged for a closer look

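For 7 genes the glucose difference itself differed with VPA by the interaction test of edgeR over the 12 libraries. RNF125, a ubiquitin ligase, rose with glucose without VPA, with a log2 fold change of 2.22, and had -0.64 with VPA, a difference of -2.82 (FDR 0.0012). Its levels were 3.42, 6.61 and 5.29 CPM in HG, 0.860, 1.25 and 1.2 CPM in LG, 2.45, 2.401 and 1.94 CPM in HGV and 3.27, 3.67 and 3.55 CPM in LGV. TTBK1, a tau kinase, had a log2 fold change of 2.64 without and 0.37 with VPA, a difference of -2.23 (FDR 0.0383). C2orf81 had -1.94 without and 0.54 with VPA, a difference of 2.52 (FDR 0.0374), at levels of 0.222 to 0.299 CPM in HG and 0.638 to 1.32 CPM in LG. SH2D5 had -1.19 without and 0.13 with VPA, a difference of 1.37 (FDR 0.0374). CDK2AP2, an inhibitor of a cell cycle kinase, had -1.55 without and -0.53 with VPA, a difference of 1.07 (FDR 0.0374). WFS1, an ER membrane protein of the unfolded protein response, had -1.22 without and -0.25 with VPA, a difference of 1.01 (FDR 0.0374). ANKRD65 had 0.53 without and -0.57 with VPA, a difference of -1.06 (FDR 0.0452). With any 1 of the 12 libraries left out, RNF125 kept an FDR of at most 0.0145, whereas the others lost the threshold in at least 1 case. With library size alone, RNF125 was the 1 gene called. Groups of 3 libraries are too small for the rule used to single out a library far from the others.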

How the results depend on the processing

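Counts of genes higher and lower ranged from 961 to 2719 and from 955 to 2619 with 1 library left out, and 1297 were lower with library size alone. The interaction, called for 7 genes, gave 1 with library size alone, 202 by likelihood ratio, 162 by DESeq2's Wald test, 13 with the replicate block, and 1 to 217 with 1 library left out. With 1 library left out, higher counts ran from 2 to 5 in gluconeogenesis, 6 to 30 in DNA replication and 6 to 23 in mitosis. Lower counts ran from 6 to 12 in the PERK and ATF4 response, 7 to 17 in vesicle coats, 8 to 16 in amino acid transporters, 3 to 5 in osmolyte genes and 6 to 16 in immediate early genes. With upper quartile factors and with library size alone, vesicle coats gave 9 and immediate early genes 6, and amino acid transporters gave 9 with library size alone. Of 240 recomputed counts of the 16 leading lists, 215 were within 1.5 times. Counts of the other lists were small, and 782 of 990 recomputed were within 1.5 times. Of 209 named genes, 145 passed the threshold in every alternative, 63 lost it with a replicate left out and 29 under another alternative, and 0 changed direction. Same-numbered HG and LG libraries deviated together with r of -0.267, -0.169 and 0.006, against -0.081 to 0.241 for different numbers. The highest r was between libraries of different numbers, but with 3 libraries per group this cannot decide whether the numbers mark pairs. With the replicate block 1766 genes were higher and 1585 lower, of which 3185 were called the same way without it. In each fit with a replicate left out, the group with fewer libraries shared the spread of all. The floor of 3 reads stood at 0.0658 to 0.101 CPM, and library totals overlapped between the groups.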
